A study of Mus musculus with 24 samples.

Results

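The regions described here were open, by a deposited ATAC-seq peak, in cultured mouse epidermal stem cells (EpdSCs) kept without doxycycline (DOX) and in cells that expressed SOX9 together with ARID1a, but had no peak in cells that expressed SOX9 alone or SOX9 with AFOS. Peaks of the 7 culture lists were merged into 97078 regions when they shared at least 1 bp, and 5421 of these met the rule. They made up 10.3% (95% Wilson interval 10.1 to 10.6%) of the 52401 regions with a peak without DOX (noDOX regions). "Closed" and "kept" stand below for the absence and the presence of a deposited peak, and the 5421 regions are called ARID1a-kept regions.

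The study followed chromatin accessibility while SOX9 was switched on in EpdSCs, in 24 samples that formed 12 groups of 2 biological replicates from male CD1 mice. All culture groups were keratinocytes from back skin that carried K14rtTA, which drives the DOX-dependent activator from the Krt14 promoter. The noDOX and WT-SOX9 groups also carried TRE-myc-Sox9, and WT-SOX9 was given DOX. The labels state a DOX dose of 1 µg per ml for the culture groups that received it. The other DOX groups carried TRE-myc-Sox9noHMG (ΔHMG-SOX9, without the DNA-binding domain), TRE-myc-Sox9noTA (ΔTA-SOX9, without the transactivation domain), TRE-FLAG-AFOS (AFOS), TRE-myc-Sox9 with TRE-FLAG-AFOS (SOX9+AFOS), or TRE-myc-Sox9 with TRE-ARID1a (SOX9+ARID1a). Peak names give day 3 of DOX for these lists. Per the study's methods, WT-SOX9, ΔHMG-SOX9 and ΔTA-SOX9 were delivered by lentivirus into Krt14-rtTA cells, whereas for AFOS and ARID1a the virus was put into Krt14-rtTA cells that either had or lacked a Sox9 transgene of their own. By the methods, SOX9+ARID1a cells would differ from WT-SOX9 cells in how SOX9 was delivered as well as in ARID1a, whereas the labels give both the same TRE-myc-Sox9 genotype, and the sources used here do not settle this. Neither an uninduced list of those cells nor a list with ARID1a alone was used here. The in vivo groups were EpdSCs sorted from K14rtTA; TRE-myc-Sox9 back skin at postnatal day 21 before DOX (D0), at day 28 (W1), 35 (W2) and 63 (W6) on DOX, and at week 12 (W12) from grafts of neonatal skin on immunocompromised hosts. Time on DOX and grafting cannot be told apart at W12. Replicates were merged by the authors before peak calling, which left 1 list per group, no spread between replicates and no test. The intervals given below cover counting error only, and regions of a list are not replicates of a condition.

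ARID1a is the large DNA-binding subunit of the canonical SWI/SNF (BAF) complex, a remodeller that uses ATP to move or evict nucleosomes and is found mainly at enhancers. AP1, a dimer of FOS and JUN proteins, is abundant in keratinocytes, binds many of their enhancers and is known to bring the BAF complex to them. AFOS is a dominant-negative FOS that pairs with JUN and keeps AP1 off DNA. SOX9 is a pioneer factor of hair follicle stem cells that can bind its motif in closed chromatin.

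Sequences of 6 ARID1a-kept regions are shown first, because the AP1 consensus was more frequent in ARID1a-kept than in noDOX regions. They were the 6 highest by the lower of their noDOX and SOX9+ARID1a scores among those with an AP1 or GATA consensus in the central 200 bp, apart from the region nearest Svil, and all are given 5′ to 3′ on the plus strand of GRCm38. Capitals mark the AP1 consensus, which reads TGACTCA on one strand and TGAGTCA on the other. They also mark the GATA consensus, which reads AGATAA on one strand and, when reversed, is spelled TTATCT. A match is a description of the sequence, not evidence of binding.
Irx3 region, chr8:91737185-91737384: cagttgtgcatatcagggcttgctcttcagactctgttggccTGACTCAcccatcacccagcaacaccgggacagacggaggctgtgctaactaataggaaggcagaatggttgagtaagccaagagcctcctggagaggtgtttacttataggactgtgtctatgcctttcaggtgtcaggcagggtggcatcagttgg
Gem region, chr4:11662078-11662277: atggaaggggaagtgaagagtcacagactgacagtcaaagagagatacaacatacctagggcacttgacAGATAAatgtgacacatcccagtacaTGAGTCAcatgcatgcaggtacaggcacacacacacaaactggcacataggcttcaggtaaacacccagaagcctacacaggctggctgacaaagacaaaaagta
Tiam1 region, chr16:90145346-90145545: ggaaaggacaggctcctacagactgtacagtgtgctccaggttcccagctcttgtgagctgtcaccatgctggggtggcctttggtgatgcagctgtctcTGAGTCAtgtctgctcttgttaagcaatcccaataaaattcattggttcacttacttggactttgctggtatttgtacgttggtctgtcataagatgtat
Rnaseh2b region, chr14:62353760-62353959: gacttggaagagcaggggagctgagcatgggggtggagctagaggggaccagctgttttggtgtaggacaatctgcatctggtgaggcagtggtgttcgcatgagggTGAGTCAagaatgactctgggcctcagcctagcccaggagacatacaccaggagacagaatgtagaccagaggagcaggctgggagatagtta
Adgrg6 region, chr10:14303675-14303874: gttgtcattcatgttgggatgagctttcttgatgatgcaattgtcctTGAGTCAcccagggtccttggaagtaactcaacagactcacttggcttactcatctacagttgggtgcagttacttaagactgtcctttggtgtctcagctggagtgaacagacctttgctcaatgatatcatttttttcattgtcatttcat
Sel1l3 region, chr5:53171685-53171884: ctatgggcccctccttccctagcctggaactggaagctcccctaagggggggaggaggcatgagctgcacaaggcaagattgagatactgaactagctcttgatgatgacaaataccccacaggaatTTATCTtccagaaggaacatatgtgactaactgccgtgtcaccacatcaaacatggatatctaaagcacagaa

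Labels were checked before the regions were compared. Each of the 12 lists had a peak within 1 kb of a start site (TSS) of all 8 keratinocyte markers, among them Krt5, Krt14 and Trp63. Start sites with a peak numbered 1 to 2 of 7 fibroblast markers, 1 to 3 of 6 melanocyte markers, 0 to 1 of 7 immune markers and 0 to 3 of 5 endothelial markers. The 3 melanocyte markers (Dct, Pmel and Mlana) were those of SOX9+AFOS, a list that the rule uses. Every other culture list had Pmel alone, and the in vivo lists had Dct and Pmel. A delivered coding sequence has no introns, so its reads stop near exon borders. Arid1a has 20 exons, and 12 peaks of the SOX9+ARID1a list were confined to Arid1a exons past the first, with a highest score of 38.2. The SOX9+AFOS list had 7 such peaks (highest score 7.86) and the AFOS list 8 (8.69). A single one was found in noDOX and in each mutant list (1), and 0 in WT-SOX9 or in vivo. The SOX9+AFOS list, which the rule uses, therefore did not lack exon-confined Arid1a peaks, and the main peak shares, the AP1, GATA and TSS shares and the differences from fully closed regions were recomputed without it. Other results were not. Sox9 exons past the first had 0 to 2 confined peaks in each list and 0 in WT-SOX9, and Fos exons 0 in all 12 lists, so neither Sox9 nor AFOS could be checked in this way. No ARID1a-kept region lay in Sox9, Arid1a or Fos exons (0 in each gene).

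The regions were chosen by the presence or absence of noDOX, WT-SOX9, SOX9+AFOS and SOX9+ARID1a peaks, and these values are a description. Of the 52401 noDOX regions, 14641 had no WT-SOX9 peak, and 10910 had neither a WT-SOX9 nor a SOX9+AFOS peak. The ARID1a-kept regions were 37.0% (36.2 to 37.8%) of the former and 49.7% (48.8 to 50.6%) of the latter. For comparison, 20.5% of all noDOX regions had no SOX9+ARID1a peak, so regions without WT-SOX9 and SOX9+AFOS peaks held that peak less often than noDOX regions as a whole. A class of similar size, 5489 regions called fully closed below (in the plots, closed in all SOX9 arms), had a noDOX peak and none in the 3 other lists of the rule, and served as the closest comparison. The other classes were the 28065 constant regions (in the plots, kept in all SOX9 arms) with a peak in all 4 of these lists, the 854 AFOS-kept regions (noDOX and SOX9+AFOS peaks, none in WT-SOX9 and SOX9+ARID1a), and the 2877 regions with noDOX, SOX9+AFOS and SOX9+ARID1a peaks and none in WT-SOX9. The last class was added after values had been seen.

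ARID1a-kept regions had weak to moderate peaks. The deposited peak score, which is normalized within a list and starts at 3, had a median of 6.0 (quartiles 4.29 to 9.03, highest 83.3) in noDOX and of 6.01 (4.21 to 9.21, highest 72.1) in SOX9+ARID1a. Constant regions had a median noDOX score of 21.1 and fully closed regions of 4.29. The SOX9+ARID1a score was within 2-fold of the noDOX score in 4267 ARID1a-kept regions (78.7%), and was the higher of the pair in 2705 (49.9%). In constant regions it was within 2-fold in 20342 (72.5%) and higher in 11383 (40.6%). Both classes were chosen for a peak of at least 3 in both lists, so weaker SOX9+ARID1a signals are left out by the rule and these values are a description. Among regions closed in WT-SOX9 and SOX9+AFOS, the share with a SOX9+ARID1a peak went up with the noDOX score, from 31.6% below 4 to 44.8% at 4 to below 6, 70.0% at 6 and over and 82.0% at 10 and over. At the threshold, 548 ARID1a-kept regions had a noDOX score of 3 to 3.5 and 654 a SOX9+ARID1a score in that range. Asking for at least 5 in both lists left 2430 of the 5421 regions (44.8%). Just outside the rule were 616 regions that met it but for a WT-SOX9 peak of 3 to 3.5, and 281 that met it but for such a SOX9+AFOS peak.

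Peak names state fragments as the input of peak calling for SOX9+ARID1a, SOX9+AFOS and AFOS and do not for the other 4 culture lists. The rule asks for a peak in 1 list of each kind and for none in 1 list of each kind. The part of peak calling in these values was not tested.

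The 12 ARID1a-kept regions with the highest lower score lay in introns or between genes, from 1677 bp to 241261 bp from the nearest protein-coding TSS. The highest was in an intron of Magi2, a membrane-associated scaffold gene, with a score of 38.0 in noDOX, 72.1 in SOX9+ARID1a, 17.9 in ΔHMG-SOX9, 23.9 in ΔTA-SOX9 and 5.67 in AFOS. In vivo it had no peak at D0, W1 and W2, and scores of 4.60 at W6 and 7.41 at W12. It was thus an open region of culture with little in vivo signal.

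**Figure D1:**
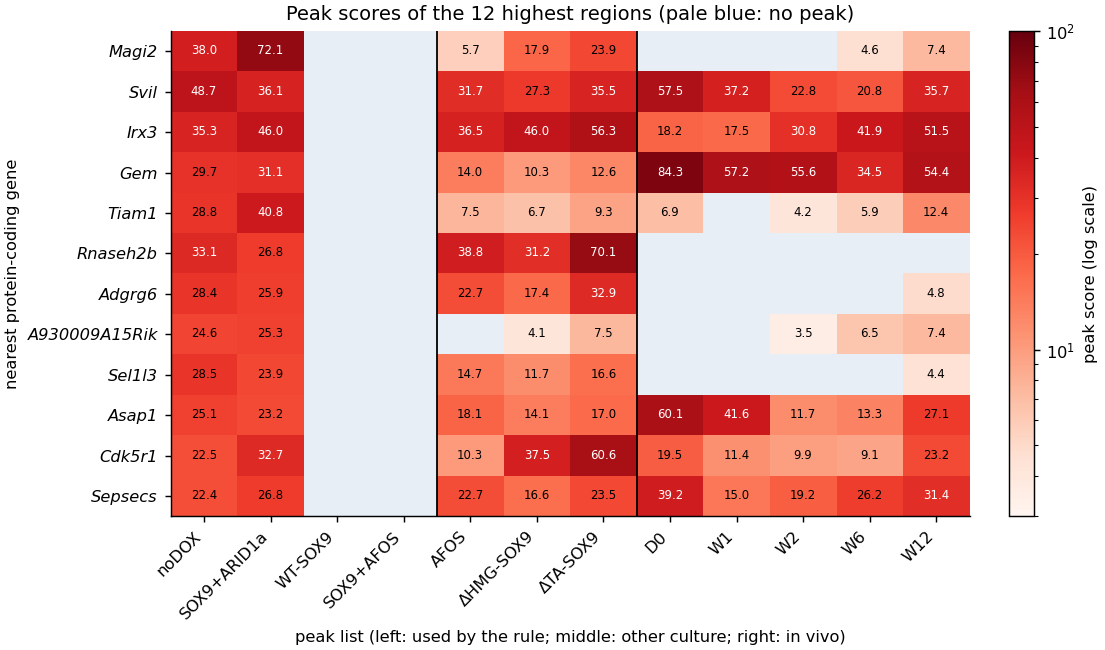
Peak scores (log colour scale, values printed) of the 12 ARID1a-kept regions with the highest lower score of noDOX and SOX9+ARID1a, 1 row per region labelled by its nearest protein-coding gene and 1 column per peak list; pale blue marks no peak. WT-SOX9 and SOX9+AFOS are empty by the rule, 11 of the 12 regions had an AFOS peak, and D0 was empty in 5.

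The region 64630 bp from Irx3, which encodes an Iroquois homeobox factor, had scores of 35.3 in noDOX, 46.0 in SOX9+ARID1a, 46.0 in ΔHMG-SOX9, 56.3 in ΔTA-SOX9 and 36.5 in AFOS. In vivo its scores were 18.2 (D0), 17.5 (W1), 30.8 (W2), 41.9 (W6) and 51.5 (W12). It held a peak in every list except WT-SOX9 and SOX9+AFOS, and its in vivo score was highest in the graft. The region 42279 bp from Gem, a small GTP-binding protein gene, scored 29.7 in noDOX, 31.1 in SOX9+ARID1a, 10.3 in ΔHMG-SOX9, 12.6 in ΔTA-SOX9 and 14 in AFOS. In vivo it scored 84.3 (D0), 57.2 (W1), 55.6 (W2), 34.5 (W6) and 54.4 (W12), above its culture scores throughout. Its sequence above holds both an AP1 and a GATA match.

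The region 1677 bp from Tiam1, which encodes an activator of the GTPase Rac, scored 28.8 in noDOX and 40.8 in SOX9+ARID1a, against 6.68 in ΔHMG-SOX9, 9.31 in ΔTA-SOX9 and 7.54 in AFOS. In vivo it had 6.94 (D0), 4.17 (W2), 5.86 (W6) and 12.4 (W12), with no W1 peak. Here the noDOX and SOX9+ARID1a scores stood above those of the other lists. In contrast, the intronic region of Rnaseh2b, a ribonuclease subunit gene, scored 33.1 in noDOX, 26.8 in SOX9+ARID1a, 31.2 in ΔHMG-SOX9, 70.1 in ΔTA-SOX9 and 38.8 in AFOS, and had no peak in the 5 in vivo lists. A region in an intron of Lgr5, an R-spondin receptor gene expressed by hair follicle stem cells, scored 24.6 in noDOX and 25.3 in SOX9+ARID1a, but 4.13 in ΔHMG-SOX9 and 7.47 in ΔTA-SOX9, with no AFOS peak. It had no peak at D0 and W1 and scored 3.54 at W2, 6.46 at W6 and 7.41 at W12.

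Whether the ARID1a-kept regions had a peak in the 3 culture lists outside the rule was then asked. Each such comparison shares the noDOX list with the rule, so the values are set side by side. ΔHMG-SOX9 peaks were found in 3581 regions (66.1%, 64.8 to 67.3%), ΔTA-SOX9 peaks in 3995 (73.7%, 72.5 to 74.9%) and AFOS peaks in 4005 (73.9%, 72.7 to 75%). Over all noDOX regions the shares were 81.5%, 80.8% and 82.7%, respectively, and over fully closed regions they were 53.2%, 63.7% and 56.2%. Peaks in all 3 lists were held by 3021 ARID1a-kept regions (55.7%, against 71.6% of noDOX regions) and a peak in none of them by 811 (15.0%, against 9.44%). Most ARID1a-kept regions were therefore open in cells with either SOX9 deletion mutant or with AFOS alone, as were most fully closed regions. They were open there less often than noDOX regions as a whole.

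**Figure D2:**
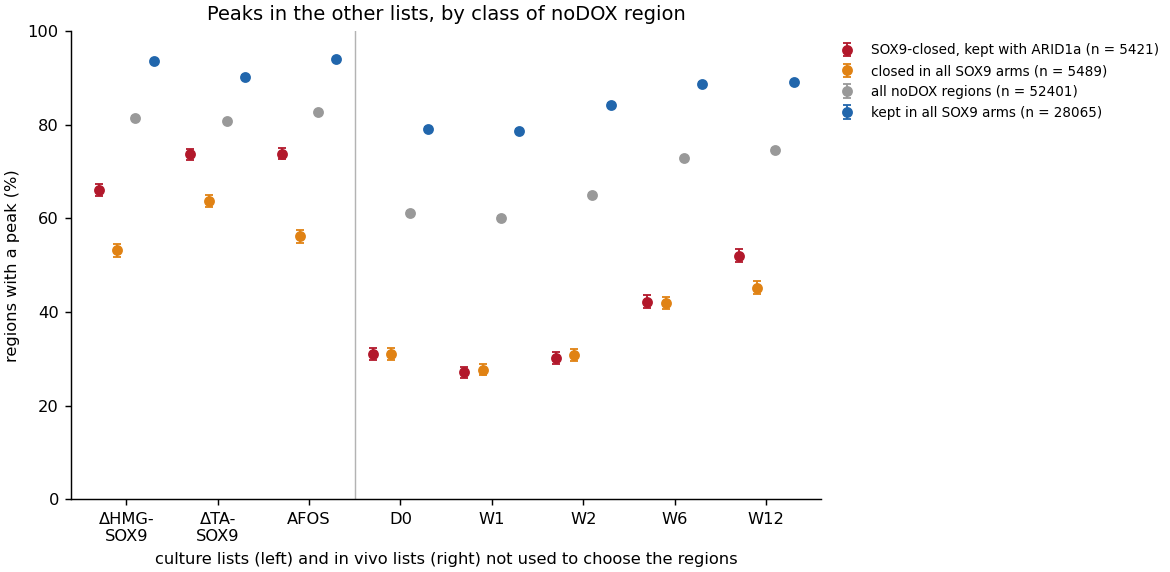
Share of regions with a peak (%) in the culture lists (left) and in vivo lists (right) that did not choose the regions, for ARID1a-kept regions, fully closed regions, all noDOX regions and constant regions; points are shares and bars 95% Wilson intervals. ARID1a-kept regions lie above fully closed regions in all 3 culture lists, on them from D0 to W6, and above them at W12 (52.1% against 45.3%).

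Part of the difference from fully closed regions went with the noDOX score, which was lower in the latter. The highest of the score bands used below has no upper limit, and the score is not matched between the classes within it. Within scores below 4, 4 to below 6, and 6 and over, ΔTA-SOX9 peaks were found in 51.5%, 67.6% and 86.1% of ARID1a-kept regions and in 51.0%, 65.9% and 84.8% of fully closed regions. The Newcombe interval of the difference included 0 in each of these bands. For ΔHMG-SOX9 the shares were 44.0%, 57.3% and 80.0% against 38.5%, 54.7% and 79.5%, with an interval above 0 (1.90 to 9.08 percentage points) in the lowest band alone. AFOS peaks differed in every band, at 55.5%, 69.2% and 83.9% of ARID1a-kept regions against 44.6%, 57.6% and 76.6% of fully closed regions, with differences of 11 (7.33 to 14.6), 11.6 (8.46 to 14.6) and 7.34 (4.59 to 10.2) points. AFOS and SOX9+ARID1a peaks also share the word fragments in their names, and the AFOS list held exon-confined Arid1a peaks, so these cannot be told apart from an effect of AFOS.

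**Figure D3:**
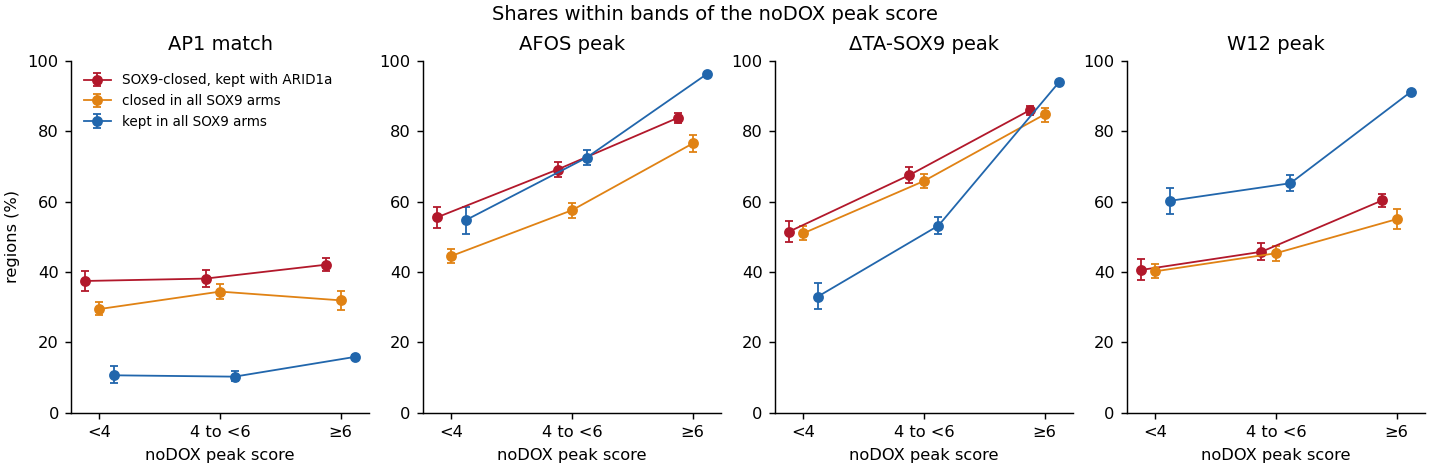
Shares (%) of regions with an AP1 match, an AFOS peak, a ΔTA-SOX9 peak and a W12 peak, within 3 bands of the noDOX peak score; points are ARID1a-kept, fully closed and constant regions, and bars are 95% Wilson intervals. ARID1a-kept regions lie above fully closed regions throughout, but the interval of the difference excludes 0 in each band for AP1 and AFOS, in none for ΔTA-SOX9 and at 6 and over alone for W12. The band at 6 and over has no upper limit, and noDOX scores are not matched between classes within it.

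The in vivo lists were not used by the rule. Of the ARID1a-kept regions, 1683 (31.0%, 29.8 to 32.3%) had a D0 peak, against 61.1% of noDOX regions so most were not called in EpdSCs of the skin before DOX. Peaks at W1 were found in 1473 (27.2%, against 60.2% of noDOX regions), at W2 in 30.2% (against 65%), at W6 in 2290 (42.2%, against 72.8%) and at W12 in 2822 (52.1%, against 74.7%). Fully closed regions had nearly the same shares from D0 to W6 (31.0%, 27.7%, 30.8% and 41.9%), where the intervals of the differences included 0. At W12 the share of ARID1a-kept regions was higher by 6.80 points (4.93 to 8.67). This W12 difference was 0.38 (-3.18 to 3.97) points at noDOX scores below 4, 0.41 (-2.82 to 3.64) at 4 to below 6 and 5.33 (1.94 to 8.73) at 6 and over.

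The in vivo lists differed in length. When each was reduced to the 57334 highest peaks, the shares of ARID1a-kept regions were 31.0% (D0), 26.9% (W1), 27.2% (W2), 32.0% (W6) and 43.0% (W12), and those of noDOX regions 61.1%, 60.0%, 61.6%, 64.5% and 67.7%. At equal length, W12 thus stood above D0 by more than the width of either interval (41.7 to 44.3% against 29.8 to 32.3%), whereas W6 did not (30.8 to 33.3%). List length, age and graft were not separated further.

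By pattern, 2259 ARID1a-kept regions (41.7%) had no in vivo peak, while 81.3% of noDOX regions had one in at least 1 in vivo list. Peaks in all 5 lists were held by 984 (18.2%, against 51.9% of noDOX regions), and by a similar 1004 of the 5489 fully closed regions. A peak at W12 without one at D0 was found in 1263 regions (23.3%, 22.2 to 24.4%), against 15.8% of noDOX regions and 17.7% of fully closed regions. Peaks at both W6 and W12 without one at D0 were found in 786 (14.5%, against 12% of noDOX regions). These shares are higher than in noDOX regions because more ARID1a-kept regions lacked a D0 peak. Of the 3738 without a D0 peak, 33.8% (32.3 to 35.3%) had a W12 peak, against 40.5% of such noDOX regions, 54.0% of constant and 25.7% of fully closed regions. Peaks at both W6 and W12 were held by 21.03% (19.8 to 22.4%) of them, against 30.8%, 46.1% and 16.8%, respectively. A D0 peak followed by none at W2 was found in 430 (7.93%, against 4.48%), which was 25.5% (23.5 to 27.7%) of those with a D0 peak, against 7.34% of such noDOX regions, 22.7% of fully closed and 3.32% of constant regions. A D0 peak with none at W2, W6 and W12 was found in 77 (1.42%, against 0.872% of noDOX regions). As a share of the 1683 regions with a D0 peak, these 77 were 4.58% (3.68 to 5.68%), close to the 5.11% of fully closed regions and above the 1.43% of noDOX and 0.585% of constant regions. Peaks at all 4 later times were held by 58.5% of the 1683, against 84.9% of noDOX regions with a D0 peak. The share of fully closed regions with a D0 peak was much the same, at 59.0%.

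The highest of those 77 regions mostly had in vivo scores near the threshold. The first lay in an intron of Lcmt1, a methyltransferase gene, and scored 14.7 in noDOX, 13.7 in SOX9+ARID1a, 7.20 in ΔTA-SOX9, 4.47 at D0 and 5.05 at W1, with no other peak. The second, in an intron of Cobl, which encodes an actin nucleator, scored 13.3 in noDOX, 14.4 in SOX9+ARID1a, 14 in ΔHMG-SOX9, 14.8 in ΔTA-SOX9, 17.7 in AFOS, 9.63 at D0 and 3.63 at W1. The regions in introns of Frmd4a and Usp29 and the one nearest to Trim41 had D0 scores of 3.79, 3.46 and 3.82. A single-list threshold therefore separated these 3 from regions without a D0 peak by little.

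Sequence was not used by the rule. The AP1 consensus occurred in the central 200 bp of 2168 ARID1a-kept regions (40.0%, 38.7 to 41.3%), against 21.8% of noDOX regions. It occurred in 31.8% of fully closed regions, 15.4% of constant regions, 14.8% of regions with both SOX9+AFOS and SOX9+ARID1a peaks and 5.74% of AFOS-kept regions. The difference from fully closed regions was 8.15 points (6.35 to 9.94), or 4.27 points (2.75 to 5.80) when the central 100 bp were searched, and was 7.98 (4.54 to 11.5), 3.70 (0.59 to 6.82) and 10.1 (6.85 to 13.4) points within the bands of noDOX score. Absence from the SOX9+AFOS list, in which AP1 is blocked by design, is part of the rule and is shared by ARID1a-kept and fully closed regions. Without that list the rule gave 8298 regions, of which 31.2% held an AP1 match, 2.92 points (1.42 to 4.41) more than regions with no peak in WT-SOX9 and SOX9+ARID1a.

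**Figure D4:**
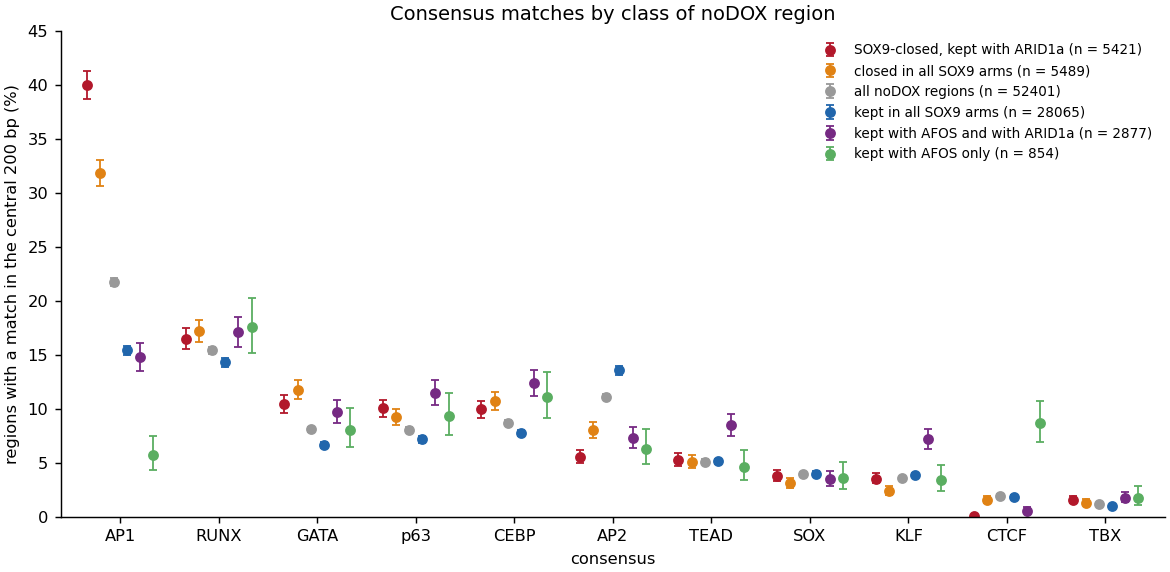
Share of regions (%) with a match to each consensus in the central 200 bp, by class of noDOX region; points are shares and bars 95% Wilson intervals. ARID1a-kept regions have the highest AP1 share (40.0%) and the lowest CTCF share (0.0553%) of the classes drawn.

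Peak presence by AP1 match over all noDOX regions uses the lists that chose the regions, and is given as a description that adds no support to the AP1 shares above. With an AP1 match, 61.5% of noDOX regions had a WT-SOX9 peak, 42.7% a SOX9+AFOS peak and 80.0% a SOX9+ARID1a peak. Without a match these shares were 75%, 71.4% and 79.3%. The shares with and without a match also differed little in ΔHMG-SOX9 (80.1% and 81.9%), ΔTA-SOX9 (83.2% and 80.1%) and AFOS (84.8% and 82.1%). WT-SOX9 and SOX9+AFOS were thus the lists with fewer peaks at AP1 matches, and a near-level share was not particular to SOX9+ARID1a.

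AP1 matches were concentrated at the centre of ARID1a-kept regions. In bins of 20 bp there were 58.7 matches per 1000 regions just before the centre and 5.90 at -300 to -280 bp. Fully closed regions had 40.4 and 4.55 in these bins, with their highest value of 46.8 at -40 to -20 bp, and constant regions 20.5 and 6.81. GATA matches showed no such concentration in ARID1a-kept regions, with 10.3 per 1000 regions in the bin before the centre and 13.5 at -300 to -280 bp. The sequences of the Irx3, Gem, Tiam1, Rnaseh2b and Adgrg6 regions each hold 1 AP1 match, and the Sel1l3 region a GATA match alone. These sequences were picked for an AP1 or GATA match, so their matches add no support to the shares.

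**Figure D5:**
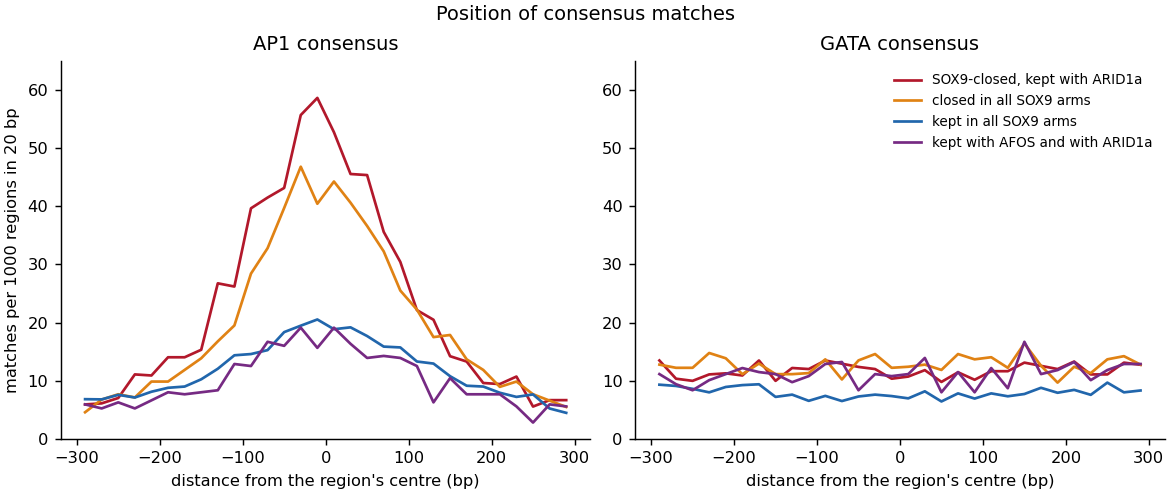
Matches to the AP1 (left) and GATA (right) consensus per 1000 regions in bins of 20 bp, against the distance from the region's centre (bp), for 4 classes of noDOX region. AP1 matches peak at 58.7 near the centre of ARID1a-kept regions, against highest values of 46.8 in fully closed and 20.5 in constant regions; GATA matches in ARID1a-kept regions stay between 9.78 and 13.5.

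In percentage points, the other consensus sequences differed from noDOX regions by less than AP1, although AP2, CRE and CTCF, all less frequent here, differed by more as a ratio. GATA, read by GATA3 among others in epidermis, was found in 566 ARID1a-kept regions (10.4%, 9.65 to 11.3%, against 8.12% of noDOX regions and 11.8% of fully closed regions). SOX (ACAATAG or ACAATGG) was found in 207 (3.82%, against 4% of noDOX regions and 3.13% of fully closed regions). RUNX (TGTGGT) stood at 16.5% (against 15.4%), p63, a master factor of epidermis, at 10.04% (against 8.07%), CEBP (TTGCNNAA) at 9.94% (against 8.69%) and TEAD (ACATTCC) at 5.26% (against 5.12%). AP2 (GCCNNNGGC) was rarer than in noDOX regions (5.57%, against 11.1%), and TBX (AGGTGTGA), taken as a control, stood at 1.55% (against 1.16%). KLF (CCACACCC) was at 3.54% (against 3.55%), GRHL (AACCNGTT) at 2.62% (against 2.61%), CRE (TGACGTCA) at 0.332% (against 0.647%) and NFI at 0.0553% (against 0.0401%). At least 2 AP1 matches were found in 210 regions (3.87%, against 2.37%), AP1 with GATA in 209 (3.86%, against 2.15%), and AP1, GATA, RUNX or TEAD in 3167 (58.4%, against 41.1%). All were sought on both strands.

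CTCF, an insulator protein that anchors chromatin loops, had almost no consensus match among ARID1a-kept regions (3 regions, 0.0553%, 0.0188 to 0.163%, against 1.96% of noDOX regions, 1.53% of fully closed regions and 8.67% of AFOS-kept regions). The 3 regions, named after their values were seen, lay nearest to Map3k14, Ccdc71l and Erich3. Over all noDOX regions with a CTCF match, 82.9% had a WT-SOX9 peak, 82.9% a SOX9+AFOS peak and 53.4% a SOX9+ARID1a peak, against 71.8%, 64.8% and 80.0% without a match. The rule asks for a peak in the list where CTCF matches were least often open, and for none in those where they were most often open.

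Within the ARID1a-kept regions, the AP1 share varied with the in vivo pattern. It was 46.8% (44.1 to 49.6%) in the 1263 regions with a W12 peak and none at D0, 38.8% (35.8 to 41.9%) in the 984 open at all 5 times and 39.0% (37.0 to 41.0%) in the 2259 with no in vivo peak. The GATA share ran the other way, at 7.05% (5.76 to 8.59%), 14.4% (12.4 to 16.8%) and 9.83% (8.67 to 11.1%), respectively. Shares for all noDOX regions with the same in vivo patterns are not given here. Whether this variation is particular to ARID1a-kept regions was not tested. The AP1 share was 41.7% (40.2 to 43.2%) in regions with an AFOS peak and 35.2% (32.8 to 37.8%) in those without, so that AP1 matches did not mark regions that lacked a peak under AFOS alone.

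ARID1a-kept regions were distal. The centre lay within 1 kb of a protein-coding TSS in 147 (2.71%, 2.31 to 3.18%), against 22.7% of noDOX regions, 34.9% of constant regions and 5.88% of fully closed regions. Within 5 kb the shares of ARID1a-kept and fully closed regions were 15.0% and 15.3% (against 32.5% of noDOX regions), and over 50 kb they were 32.8% and 39.2% (against 24.2%). The median distance was 26147 bp (quartiles 9115 to 68808 bp). Centres were intronic in 49.3% (against 43.7% of noDOX regions), intergenic in 47.7% (against 42.7%), in untranslated exon sequence in 1.94% (against 9.16%) and in coding sequence in 1.01% (against 4.4%). Median width was 510 bp and median GC content of the central 200 bp 47.0%, against 899 bp and 53.0% for constant regions. Fully closed regions were similar, at 459 bp and 47.5%.

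The 147 promoter-proximal regions were more often open in vivo than the 5274 others, with D0 peaks in 46.3% (38.4 to 54.3%) against 30.6% (29.4 to 31.9%) and W12 peaks in 65.3% (57.3 to 72.5%) against 51.7% (50.3 to 53.0%). Their AP1 share of 36.1% (28.7 to 44.1%) overlapped the 40.1% of the others. The same split of all noDOX regions is not given here, so whether these differences are particular to ARID1a-kept regions was not tested. The share of noDOX regions that were ARID1a-kept ran from 8.29% on chromosome 19 to 13.1% on chromosome 5, and was 11.9% on X.

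The location of ARID1a-kept regions was next read in 8 gene lists, taking the gene body and 25 kb on either side. In the loci of 24 epidermal identity factors, 20 of 176 noDOX regions were ARID1a-kept (11.4%, 7.48 to 16.9%), and in those of 20 EGFR and NOTCH pathway genes 16 of 147 (10.9%, 6.81 to 16.9%), both close to the 10.3% of all noDOX regions. The other lists were lower: epidermal differentiation 9 of 94 (9.57%), TGF-beta, BMP and WNT signalling 10 of 127 (7.87%), SWI/SNF subunits 10 of 133 (7.52%), hair follicle stem cell factors 14 of 188 (7.45%), keratins and adhesion 12 of 234 (5.13%, 2.96 to 8.75%) and AP1 subunits 2 of 70 (2.86%, 0.79 to 9.83%). The interval lay below 10.3% for keratins and adhesion and for AP1 subunits. The intervals of the other 6 lists included it. Fully closed regions made up 5.98% of the noDOX regions at keratins and adhesion, 11.4% at AP1 subunits and 10.5% of all noDOX regions. The low share at keratins and adhesion was thus not particular to ARID1a-kept regions. The windows hold the genes' own start sites, where ARID1a-kept regions were rare, and this was not adjusted for.

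Trp63, which encodes p63, had the most ARID1a-kept regions of the identity factors, with 5 of its 17 noDOX regions, against 0 fully closed and 8 constant. Of these 5, singled out after their values were seen, the region downstream of the gene (chr16:25912176-25912872) scored 8.25 in noDOX, 5.56 in SOX9+ARID1a, 6.47 in ΔHMG-SOX9, 11.5 in ΔTA-SOX9 and 19.3 in AFOS, and 15.5, 18.7, 14.3, 19.0 and 20.3 from D0 to W12. It was open in every list outside the 2 closed ones. An intronic region (chr16:25786382-25786934) scored 4.04 in noDOX and 4.4 in SOX9+ARID1a with no peak in the other culture lists, and in vivo scores of 8.81 (D0), 16.5 (W1), 3.54 (W2) and 3.79 (W12) without a W6 peak. The other 3 were intronic, with noDOX scores of 3.34 to 7.69 and SOX9+ARID1a scores of 4.43 to 6.0, and 3 of the 5 held an AP1 match.

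Of the identity factors with a named region, Barx2, a homeobox gene, held one in an intron with scores of 11.4 in noDOX and 8.52 in SOX9+ARID1a. Each other list except WT-SOX9 and SOX9+AFOS also had a peak there, from 5.06 in ΔTA-SOX9 to 10.4 at W12. A region 22296 bp from Hes1, a NOTCH target, scored 14.2 in noDOX and 7.83 in SOX9+ARID1a, and 17.5 (D0), 11.7 (W1), 4.36 (W2), 9.84 (W6) and 17.5 (W12) in vivo. A region 19366 bp from Ovol1, a repressor active in epidermal differentiation, scored 6.07 in noDOX and 8.15 in SOX9+ARID1a with no peak in ΔHMG-SOX9, ΔTA-SOX9 and AFOS. It had 9.11 at D0 and 6.27 at W12, so its presence in vivo was not matched in the 3 other culture arms.

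In the signalling lists, an Egfr intron held a region with scores of 18.9 in noDOX and 8.88 in SOX9+ARID1a, with no peak at D0, W1 and W2 and scores of 4.93 at W6 and 7.34 at W12. Notch2, a NOTCH receptor gene, had 4 of 16 noDOX regions ARID1a-kept. The one with the highest lower score lay 11582 bp from the TSS and scored 11.2 in noDOX, 15.8 in SOX9+ARID1a, 10.5 in ΔHMG-SOX9 and 3.61 in ΔTA-SOX9, and no AFOS or in vivo peak. All 4 Notch2 regions lacked in vivo peaks. Smad3, a mediator of TGF-beta signals, also had 4 (of 17), but these had in vivo peaks at W2, W6 and W12 in each case. Near Axin2, a negative regulator of WNT signalling, 2 of 3 noDOX regions were ARID1a-kept, the higher of them with 19.9 in noDOX, 11.2 in SOX9+ARID1a and 12.8 at D0.

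In the keratin and adhesion list, Dsc3, a desmosomal cadherin gene, had 4 of 10 noDOX regions ARID1a-kept and 0 fully closed, and the 12 ARID1a-kept regions of the list fell to 9 of its 24 genes. Krt10 and Krt1, keratins of suprabasal cells, had 1 each. The only 2 regions at AP1 subunit genes were in an intron of Fosl2 (4.59 in noDOX, 8.14 in SOX9+ARID1a, 9.62 in AFOS and 5.98 at D0) and near Fosl1, in an intron of Efemp2 (5.56 in noDOX, 3.30 in SOX9+ARID1a and 21.2 at D0). Among SWI/SNF genes, Arid1b had 4 of 25 noDOX regions ARID1a-kept, Smarca4 2 of 10 and Arid1a itself 1 of 11, with 7.52% for the list as above. In the differentiation list, Ppl, a cornified envelope gene, had 3 of 11, and a region 2348 bp from S100a14 scored 10.7 in noDOX, 15.7 in SOX9+ARID1a, 21.4 in AFOS and 15.5 at D0.

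By nearest gene, the 5421 regions were spread over 3615 protein-coding genes, of which 2544 were nearest to 1 region and 75 to 5 or more. Myc, a growth regulator, was nearest to 12 of them (of 53 noDOX regions), at a median of 303986 bp. Sox9 and Maf had 9 each (of 52 and 29). Cdh13, Camk2d, Zeb2, Lpp and Ntm had 8 each and Btbd3 7, of 16, 20, 23, 41, 27 and 37 noDOX regions. The regions near Sox9 lay at a median of 245007 bp, and 9 further noDOX regions there were fully closed and 19 constant. These counts are a description. The median gap from one ARID1a-kept region to the nearest other was 64602 bp, against 89754 bp for fully closed regions, and 27.9% lay within 25 kb of another, against 21.4%. ARID1a-kept regions thus lay somewhat closer together than the fully closed regions, a class of similar size.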

How the data were processed

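ATAC-seq of 24 samples gave the deposited peak lists. In the methods of the study, PEPATAC was the alignment pipeline and GRCm38 the genome, after which the authors pooled both replicates of each group and ran MACS2 with duplicates retained. The submitters' processing notes list Bowtie2 2.2.9, SAMtools 1.9, Picard 2.3.0, MACS2 2.1.1 and deepTools 2.5.4 without saying at which step each was used. The deposited lists give 1 normalized score per peak with a threshold of 3. The 5 in vivo lists also hold the fold enrichment and −log10 q-value that the authors' MACS2 run gave, which were not used for the values reported here. Read depth is not given in the sources used here, so that precision is limited by an unknown depth, and lists held 49458 to 75956 peaks.

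Regions were built from the 7 culture lists by merging peaks that shared at least 1 bp, and a region's score was that of its highest peak. Motifs were matched exactly on both strands in the central 200 bp, and positions were read from the reference annotation of the same build. Shares carry 95% Wilson intervals and differences Newcombe intervals, with no test, since 1 list per group was left. The members, gene lists and comparisons were chosen with earlier results of these data known. Regions were named by the highest lower score of noDOX and SOX9+ARID1a: 12 in all, 6 with a D0 peak and none at W2, W6 and W12, and at most 3 per gene list. Some regions that this rule names are not reported here. The class with both SOX9+AFOS and SOX9+ARID1a peaks, and the rule without the SOX9+AFOS list, were added after values were seen. Alternatives were a score of at least 5, lists of equal length, 50% overlap, absence also within 500 bp, autosomes alone, other motif and TSS windows and bands of noDOX score. Python 3.11.15, numpy 2.4.6, pandas 2.3.3, SciPy 1.17.1 and matplotlib 3.10.9 were used, and the scripts were tested on simulated data.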

Additional observations from a re-analysis of the deposited data

Results flagged for a closer look

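Peaks confined to Arid1a exons past the first, which were not used to choose or compare regions, numbered 8 in the AFOS list and 7 in the SOX9+AFOS list, against 1 in noDOX, 0 in WT-SOX9 and 12 in SOX9+ARID1a. Neither AFOS group is labelled as carrying ARID1a. Highest scores were 8.69 and 7.86, against 4.81 in noDOX and 38.2 in SOX9+ARID1a. Their part in the results that use these lists was not tested. When the SOX9+AFOS list was left out of the rule, an alternative chosen after seeing the data, 8298 regions qualified, 69.5% of them had an AFOS peak and 31.2% an AP1 match.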

How the results depend on the processing

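Of 113 values recomputed under an alternative, 66 stayed within the main value's 95% interval or, for counts, within 1.5 times, and 47 moved further. Shares and counts cannot change sign. Among the differences between classes, where a change was possible, 0 changed sign. The cause of these shifts was not tested. With a score of at least 5 in every culture list, shares of ARID1a-kept regions with a peak were 67.8% in ΔHMG-SOX9, 72.3% in ΔTA-SOX9, 38.0% (D0), 32.7% (W1), 37.9% (W2), 50.6% (W6) and 61.5% (W12), and the AP1 difference from fully closed regions was 6.18 points. With culture lists reduced to 49458 peaks, they were 69.5% in ΔHMG-SOX9, 72.3% in ΔTA-SOX9, 69.9% in AFOS, 33.1% (D0), 28.7% (W1), 31.7% (W2), 44.2% (W6) and 55.5% (W12), and the AFOS difference was 19.9 points. With 50% overlap the AP1 share was 42.2%, and with both scores at least 5 the regions numbered 2430. In vivo lists of equal length gave 27.2% at W2, 32.0% at W6 and 43.0% at W12. In the whole region AP1 stood at 59.7%, GATA at 26.2% and the AP1 difference at 10.5 points; in the central 100 bp these were 22.9%, 5.07% and 4.27 points. Within 5 kb of a TSS lay 15.0%. Within bands of noDOX score the AFOS difference was 11, 11.6 and 7.34 points, the W12 difference 0.38 and 0.41 points below 6, and the AP1 difference 3.70 points at 4 to below 6 and 10.1 points at 6 and over. Without the SOX9+AFOS list in the rule (added after seeing the data), 8298 regions had peaks in 62.6% (ΔHMG-SOX9), 64.4% (ΔTA-SOX9), 69.5% (AFOS), 37.5% (D0), 35.1% (W1), 36.5% (W2) and 46.7% (W6), with an AP1 share of 31.2%, an AFOS difference of 15.1 points and an AP1 difference of 2.92 points.

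No paired analysis was possible because each list came from merged replicates, which also kept single replicates from being left out. Unknown depth limits what the absence of a peak shows.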
